A study of Homo sapiens with 8 samples.

Results

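The genes described here are the ligands of the natural killer cell receptor NKG2D and the genes that present antigen, namely MICA, MICB, ULBP1, ULBP2, ULBP3, HLA-E, B2M, TAP1, HLA-DRA and CD74. Every probe set whose only gene symbol in the platform annotation was one of these 10 genes was taken, which gave 18 of 54675 probe sets, for 10 of 19775 genes. The genes were chosen from earlier results of these arrays, which had shown their signals by line and their ratios between populations, so both are given here as descriptions. Cells of the side population (SP), which pump the dye Hoechst out, were set against cells of the main population (MP), which keep it. Both were sorted from 4 human lung cancer cell lines, of which A549 and H460 carry mutated K-Ras and H1650 and H1975 carry mutated EGFR. Each line gave 1 SP array and 1 MP array, 8 Affymetrix arrays in all, and the labels give no drug treatment for any group. No label says that the populations of a line came from separate cultures, so the spread between the arrays of a line may be technical.

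NKG2D is an activating receptor of natural killer cells and of some T cells, and its ligands are surface proteins related to MHC class I that stressed or transformed epithelial cells put up. MHC class I molecules are heavy chains bound to beta-2 microglobulin, and they carry peptides that the proteasome makes and the TAP transporter brings into the endoplasmic reticulum. HLA-E shows leader peptides of other class I chains to the receptors NKG2A and NKG2C of natural killer cells. MHC class II molecules, with the invariant chain CD74 as their chaperone, are mostly made by professional antigen-presenting cells, and epithelial cells can make them when interferon gamma induces the regulator CIITA.

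To show the regulatory sequence of the members with the clearest values, the 300-base windows around the gene start are printed for MICA and MICB, whose signals parted in H1650, for ULBP2 and CD74, which differed most between lines among the well measured members, for TAP1, whose ratio between populations varied least, and for B2M, the brightest member. Windows were held for 8 of the 10 genes and come from RefSeq on GRCh38.p14, each written 5′ to 3′ along its gene. Capitals mark matches on either strand to GAAANNGAA, a core of interferon response elements, to CCAAT, bound by NF-Y, to GAANNTTC, the core of heat shock elements, and to TGACG, a core of the cyclic AMP response element.
MICA: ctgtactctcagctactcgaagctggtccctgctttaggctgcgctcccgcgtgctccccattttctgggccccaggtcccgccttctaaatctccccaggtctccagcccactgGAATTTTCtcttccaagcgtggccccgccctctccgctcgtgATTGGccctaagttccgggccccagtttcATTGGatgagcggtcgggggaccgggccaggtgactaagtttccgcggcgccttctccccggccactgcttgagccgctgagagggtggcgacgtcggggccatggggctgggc
MICB: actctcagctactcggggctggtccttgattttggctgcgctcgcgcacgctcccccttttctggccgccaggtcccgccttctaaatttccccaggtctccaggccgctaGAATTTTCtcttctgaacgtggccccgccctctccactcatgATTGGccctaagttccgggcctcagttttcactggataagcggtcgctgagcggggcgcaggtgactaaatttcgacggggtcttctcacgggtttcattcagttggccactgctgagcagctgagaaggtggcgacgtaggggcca
ULBP2: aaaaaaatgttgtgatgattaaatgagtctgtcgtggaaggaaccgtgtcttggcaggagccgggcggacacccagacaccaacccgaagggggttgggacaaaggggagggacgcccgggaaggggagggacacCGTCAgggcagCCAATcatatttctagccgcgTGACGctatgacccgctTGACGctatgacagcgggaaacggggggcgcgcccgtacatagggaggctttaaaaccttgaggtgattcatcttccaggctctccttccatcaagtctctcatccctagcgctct
B2M: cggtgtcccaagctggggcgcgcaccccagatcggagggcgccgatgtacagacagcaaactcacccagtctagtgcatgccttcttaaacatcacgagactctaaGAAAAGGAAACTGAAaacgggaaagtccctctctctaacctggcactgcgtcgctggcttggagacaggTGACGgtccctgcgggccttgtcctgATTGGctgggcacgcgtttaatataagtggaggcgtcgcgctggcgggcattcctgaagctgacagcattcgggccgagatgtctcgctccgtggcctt
TAP1: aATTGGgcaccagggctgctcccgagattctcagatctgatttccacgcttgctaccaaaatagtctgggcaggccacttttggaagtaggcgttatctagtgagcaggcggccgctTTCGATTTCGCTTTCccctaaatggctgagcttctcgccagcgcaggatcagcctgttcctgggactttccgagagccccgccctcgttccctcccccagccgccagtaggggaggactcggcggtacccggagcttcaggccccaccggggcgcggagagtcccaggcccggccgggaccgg
CD74: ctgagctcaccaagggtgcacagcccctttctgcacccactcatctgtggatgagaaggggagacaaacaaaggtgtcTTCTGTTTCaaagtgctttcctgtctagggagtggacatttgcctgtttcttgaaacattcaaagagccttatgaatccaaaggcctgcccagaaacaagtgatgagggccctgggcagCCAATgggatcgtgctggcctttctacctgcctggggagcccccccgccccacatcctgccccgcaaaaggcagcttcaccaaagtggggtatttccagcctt
These windows are chr6:31403345-31403644 for MICA, chr6:31497895-31498194 for MICB and chr6:149941764-149942063 for ULBP2, all on the plus strand. B2M is at chr15:44711267-44711566 on the plus strand, TAP1 at chr6:32853655-32853954 on the minus strand and CD74 at chr5:150412861-150413160 on the minus strand. The MICA and MICB windows lie at starts inside the annotated span of their genes. Aligned with each other, they held 247 identical bases, or 87.0% of the columns without a gap, and both held GAANNTTC, which 6.79% of 34796 promoter windows of the same length held. In all, 9 windows of the 8 genes were searched, since TAP1 has another at chr6:32852712-32853011, and that window and the one of ULBP3 held no match to any motif. GAAANNGAA was in 3 of the 9 and in 8.11% of all windows, with 2 overlapping matches in B2M and in the printed TAP1 window and 1 in CD74. CCAAT was in 6 of the 9, those printed, and in 34.6% of all windows. TGACG was in 3 of the 9, with 3 matches each in ULBP1 and ULBP2 and 1 in B2M, and in 24.5% of all windows. A match here is a run of letters and was not tested for binding.

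Values are log2 MAS5 signals as deposited, a difference of 1 being 2-fold, and the median over an array lay between 5.92 and 6.29. A probe set counted as well measured when its mean over the 8 arrays was at least 6.01, which 27280 of the probe sets other than controls reached, and so did 11 of the 18 member probe sets. ULBP1, ULBP3 and HLA-DRA had none among them, and CD74 passed through its signal in the EGFR mutant lines, since it was at 4.91 or less in the K-Ras mutant lines. In these bulk samples, fewer cells that express a gene and less RNA per cell cannot be told apart. ABCG2, the transporter that pumps Hoechst out, had an SP over MP log2 ratio of -0.70 in H1650 and ratios between 0.36 and 1.17 in the other lines, and TOP2A, a gene of dividing cells, had -1.43 in H1650 and between 0.62 and 1.58 in the others. The H1650 arrays thus go against their labels for both genes, and a direction between populations there depends on these labels. The keratins KRT8 and KRT18 were at 12.88 or above on all arrays, while EPCAM in H460 was at 5.97 in SP and 5.25 in MP, and CDH1 at 1.61 in SP and 0.63 in MP. Of 10 listed leukocyte markers 7 were measured, and only the monocyte gene CD14 was above 6.01 on average. PTPRC (CD45) lay between 3.14 and 4.72 on all arrays, and NKG7, a gene of killer cells, between 1.04 and 2.96. No marker was listed at 0.

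**Figure D1:**
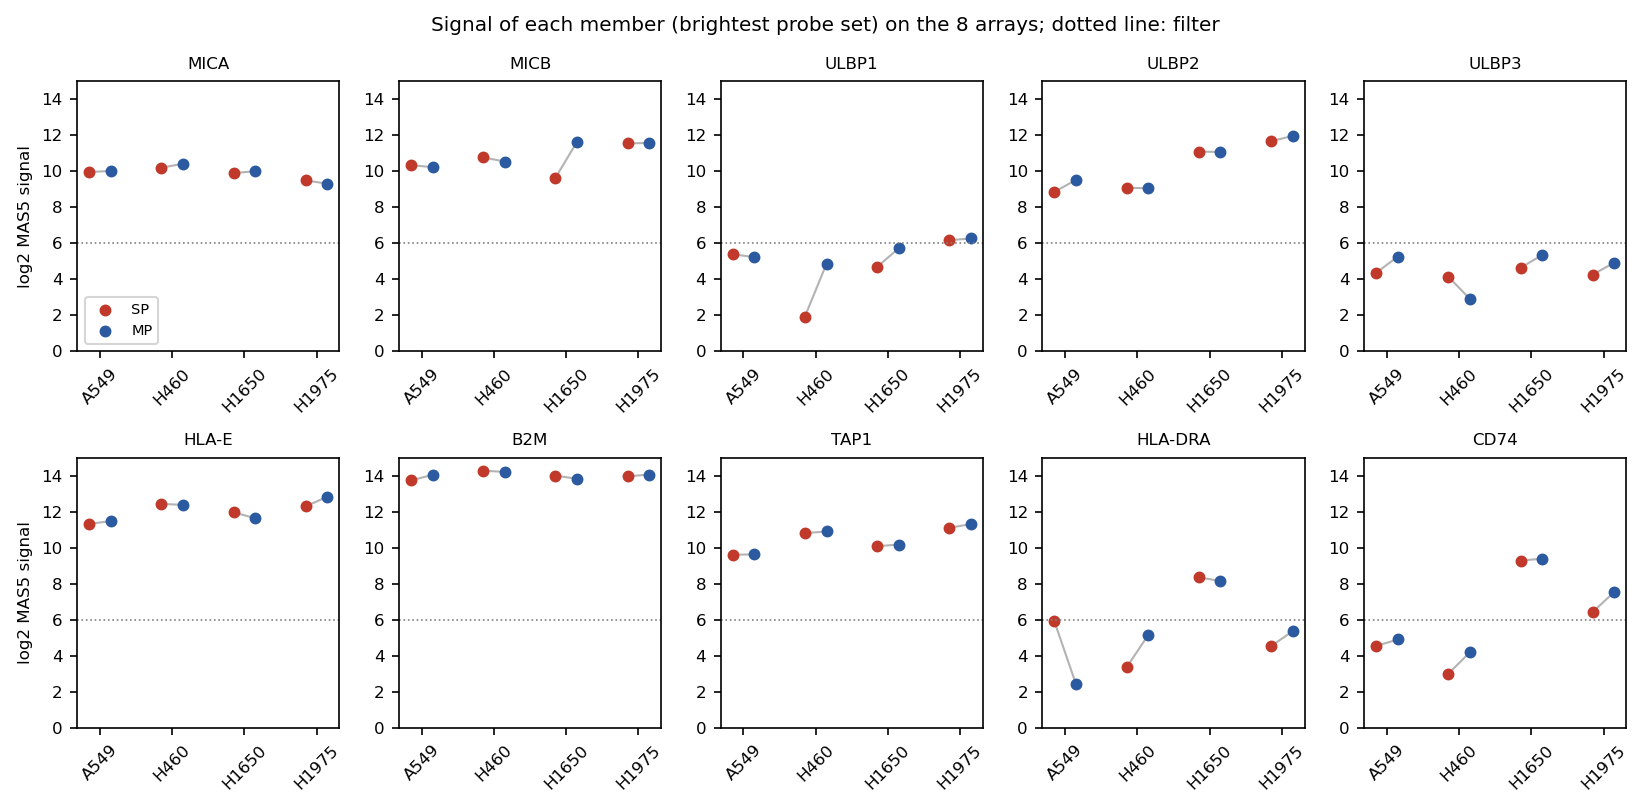
Signal of the brightest probe set of each of the 10 genes (y axis, log2 MAS5 signal) on the SP array (red, left) and the MP array (blue, right) of each cell line (x axis), with the filter of 6.01 as a dotted line. B2M and HLA-E are bright in every line, ULBP2 is higher in H1650 and H1975, HLA-DRA and CD74 are highest in H1650, and the MICB points of H1650 lie far apart.

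Among the NKG2D ligands, MICA, MICB and ULBP2 were well measured in all lines and ULBP1 and ULBP3 were dim. MICA and ULBP2 did not run alike, since MICA was lowest in H1975, where ULBP2 was highest. MICA (chromosome 6, 31400711 to 31415315) had SP and MP signals of 9.96 and 10.03 in A549, 10.21 and 10.43 in H460, 9.91 and 10.01 in H1650, and 9.50 and 9.32 in H1975. Its line means fell in the order H460 (10.32 ± 0.16), A549 (9.99 ± 0.05), H1650 (9.96 ± 0.07) and H1975 (9.41 ± 0.13; SD, n = 2 arrays), a span of 0.91 or 1.88-fold. The arrays of A549 and H1650 overlapped, and each other neighbour in that order stood apart. SP over MP, its log2 ratio was -0.07 for A549, -0.22 for H460, -0.10 for H1650 and 0.18 for H1975.

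MICB, the close relative of MICA, was the member with the widest split between populations of a line among the well measured ones. MICB (chromosome 6, 31494918 to 31511124) had 9.63 on the H1650 array labelled SP and 11.64 on the H1650 array labelled MP. Its SP and MP signals were 10.35 and 10.24 in A549, 10.78 and 10.55 in H460, and 11.56 and 11.58 in H1975. The H1650 array labelled SP was thus the lowest of all 8 and the H1650 array labelled MP the highest. The log2 ratio was -2.01 in H1650, against 0.11, 0.24 and -0.03 in A549, H460 and H1975. In H1650, 0.246% of all well measured probe sets were at least 4-fold lower on the array labelled SP. This cut was used for this line and direction only and lies close to the MICB ratio, which was known. The share is thus a description and does not show how rare the split is. With 16 added to the linear signal MICB had -1.99 in H1650, short of 4-fold. At the 2-fold cut, used in every line, the share lower in SP of H1650 was 2.10%. Over the lines the mean ratio was -0.42 ± 1.06 (SD, n = 4 lines), and 0.11 ± 0.13 without H1650 (n = 3). By line mean, H1975 (11.57 ± 0.02) came first, then H460 (10.66 ± 0.17), H1650 (10.64 ± 1.42) and A549 (10.29 ± 0.08). The range of H1650 took in the arrays of all other lines, and these stood apart from each other.

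A further probe set, 205905_s_at, is annotated to MICA and MICB together and so is outside the rule. It read 9.38 in SP and 9.46 in MP of H1650, a ratio of -0.08, and in the other lines its ratio lay between -0.14 and 0.24. The split of H1650 was thus seen with the MICB probe set and not with the shared one, whose line order, H460, H1650, A549 and H1975, put the same lines at the ends as that of MICA. Which transcripts each probe set reads was not tested.

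**Figure D2:**
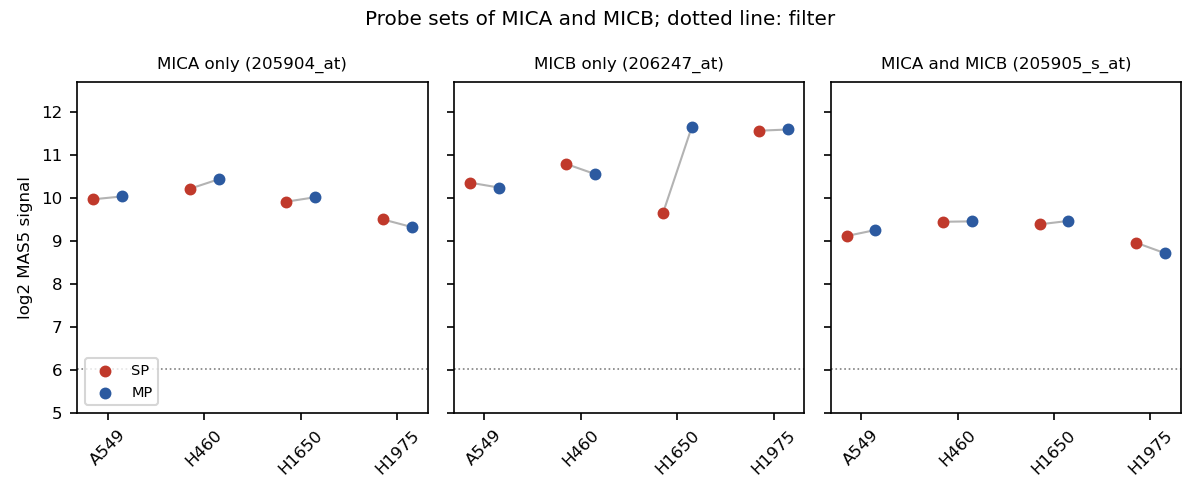
Signal (y axis, log2 MAS5 signal) of the probe sets of MICA, of MICB and of MICA and MICB together on the SP array (red, left) and MP array (blue, right) of each line, with the filter as a dotted line. In H1650 the MICB points are at 9.63 (SP) and 11.64 (MP), and those of the other probe sets lie close together.

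ULBP2, a ligand held in the membrane by a lipid anchor, was higher on all arrays of the EGFR mutant lines than on those of the K-Ras mutant lines with both of its probe sets. Such arrays did not overlap for 24.0% of all well measured probe sets, and mutation and line cannot be told apart here. The brighter probe set, 238542_at (chromosome 6, 149942014 to 149949235), had SP and MP signals of 11.68 and 11.97 in H1975, 11.10 and 11.08 in H1650, 8.86 and 9.53 in A549, and 9.09 and 9.06 in H460. H1975 (11.82 ± 0.21) stood apart from H1650 (11.09 ± 0.01), which stood 1.90 above A549 (9.19 ± 0.48), and A549 overlapped with H460 (9.08 ± 0.02; SD, n = 2). The span was 2.75, or 6.72-fold. The dimmer probe set, 221291_at, ran from 8.77 to 9.41 with mutated EGFR and from 6.58 to 8.41 with mutated K-Ras, with the same order and a span of 2.25. RAET1L, a near copy of ULBP2, was not analysed here, and how far the ULBP2 probes also read it was not tested.

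Between populations, ULBP2 probe set 221291_at was lower in SP in all 4 lines, with signals of 7.35 in SP and 8.41 in MP of A549 and of 6.58 in SP and 7.57 in MP of H460. The SP and MP signals were 8.77 and 8.90 in H1650 and 9.25 and 9.41 in H1975. The log2 ratios were -1.06 and -0.99 in A549 and H460 and -0.13 and -0.16 in H1650 and H1975, with a mean of -0.58 ± 0.51 (SD, n = 4) and of -0.74 ± 0.50 without H1650. The brighter probe set had -0.67, 0.03, 0.02 and -0.29 in the same order of lines, so the lower SP signal of H460 was seen with only 1 of the probe sets.

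ULBP1 and ULBP3 were near the low end of the signal. ULBP1 (chromosome 6, 149963943 to 149973715), made like ULBP2 as a lipid-anchored ligand, had SP and MP signals of 5.39 and 5.23 in A549, 1.92 and 4.86 in H460, 4.68 and 5.73 in H1650, and 6.18 and 6.27 in H1975. Its highest line was H1975, as for ULBP2 and MICB. ULBP3 (chromosome 6, 150061053 to 150069121), another lipid-anchored ligand, had 4.36 and 5.26, 4.14 and 2.90, 4.64 and 5.35, and 4.26 and 4.93 in SP and MP of the same lines. At these signals a log2 ratio moves with small changes of the linear signal: when linear signals under 32 were set to 32, the span of ULBP1 between lines was 1.22 in place of 2.83, and that of ULBP3 was 0.17 in place of 1.47.

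The list of ligands outside the members held 3 genes, of which only RAET1E was measured. RAET1E, a ligand with a transmembrane segment, was highest in H460 (7.94 ± 0.21) and lowest in H1975 (5.20 ± 0.17; SD, n = 2; limma F test, adjusted p = 0.00194), so it had the same end lines as MICA. Of the receptor and its adaptor, only HCST (DAP10), which passes on the signal of NKG2D, was measured, with line means between 5.58 ± 0.01 in A549 and 7.34 ± 0.03 in H1650 (limma F test, adjusted p = 0.014). All 5 listed genes of the shedding of ligands from the surface were well measured, and 4 of them differed between lines, where 76.2% of all 12300 well measured genes did, each by its brightest probe set. MMP14, a membrane-bound metalloproteinase, spanned 4.18, with 10.99 ± 0.22 in H1975, 8.80 ± 0.21 in H1650, 7.07 ± 0.48 in A549 and 6.81 ± 0.46 in H460 (limma F test, adjusted p = 7.03e-05). ADAM10 spanned 0.75, highest in A549 and lowest in H460 (adjusted p = 0.00226 by limma). SP against MP, limma called none of these 7 genes. These p-values, as all those between lines, measure the spread between sorted populations and not between cultures.

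The class I members were bright in every line, and the heavy chain HLA-E varied more than its light chain B2M. B2M (chromosome 15, 44711517 to 44718145), the shared light chain of class I, had SP and MP signals of 13.75 and 14.07 in A549, 14.29 and 14.23 in H460, 14.02 and 13.85 in H1650, and 13.98 and 14.08 in H1975 with probe set 201891_s_at. Its line means spanned 0.35, or 1.28-fold, against a median span of 1.13 over all well measured probe sets. The second probe set, 216231_s_at, spanned 0.29. Another, 232311_at, was dim, with SP and MP signals of 5.60 and 3.96 in A549, 7.22 and 4.91 in H460, 3.37 and 5.71 in H1650, and 5.24 and 5.66 in H1975. It did not follow the other B2M probe sets: its log2 ratio ran from -2.34 to 2.31, while theirs stayed between -0.32 and 0.17.

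HLA-E (chromosome 6, 30489509 to 30494194) had 3 probe sets, and those ending in _x_at can also bind transcripts of related genes, such as other class I chains. The brightest, 200905_x_at, had SP and MP signals of 11.34 and 11.49 in A549, 12.44 and 12.40 in H460, 11.98 and 11.65 in H1650, and 12.31 and 12.86 in H1975. A549 was the lowest line and H1975 the highest, with line means of 11.41 ± 0.11 and 12.58 ± 0.39 (SD, n = 2), and the span was 1.17 or 2.25-fold. Probe set 217456_x_at spanned 1.31, with H460 highest. The probe set 200904_at, without that suffix, had SP and MP signals of 9.63 and 10.21 in A549, 10.42 and 10.85 in H460, 10.02 and 9.64 in H1650, and 10.10 and 10.91 in H1975. Its line mean was highest in H460 (10.64) and lowest in H1650 (9.83), whose arrays overlapped with A549 (9.92), and the span was 0.80. Its log2 ratio was 0.38 in H1650 and -0.58, -0.43 and -0.81 in A549, H460 and H1975, so SP was lower in the 3 lines whose ABCG2 was higher in SP and higher in the remaining one. This pattern of signs was met by 13.0% of all well measured probe sets. The mean was -0.36 ± 0.52 over 4 lines and -0.61 ± 0.19 without H1650 (SD, n = 3). The _x_at probe sets did not share it, with ratios in H460 of 0.05 and 0.30.

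TAP1, which with TAP2 forms the pump for peptides, ordered the lines without overlap. TAP1 (chromosome 6, 32845209 to 32853704) had SP and MP signals of 11.12 and 11.32 in H1975, 10.82 and 10.91 in H460, 10.09 and 10.19 in H1650, and 9.62 and 9.64 in A549. Line means were 11.22 ± 0.14, 10.87 ± 0.06, 10.14 ± 0.07 and 9.63 ± 0.02 in that order (SD, n = 2), a span of 1.59 or 3.01-fold. SP was below MP in each line, by a little: the log2 ratios were -0.20, -0.09, -0.10 and -0.03, and their mean was -0.10 ± 0.07 (SD, n = 4). On GRCh38.p14 the start of TAP1 lies 488 bases from that of PSMB9, an immunoproteasome subunit transcribed the other way. PSMB9 was likewise highest in H1975 (12.26 ± 0.20) and lowest in A549 (9.49 ± 0.10), with a span of 2.77 (limma F test, adjusted p = 1.04e-05), and its SP over MP ratios were -0.28 in H1975, -0.30 in H460, -0.13 in H1650 and -0.14 in A549.

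The counts of other genes of the class I route that differed between lines are to be read beside the same 76.2% of all well measured genes. All 4 measured heavy chains of 5 listed differed between lines and had their highest mean in H1975 and their lowest in A549. HLA-G, a class I chain known for its part in tolerance, stood at 13.73 ± 0.17 in H1975 and 10.76 ± 0.23 in A549 (limma F test, adjusted p = 5.68e-06). HLA-F, a non-classical class I chain, stood at 12.74 ± 0.35 in H1975 and 10.41 ± 0.07 in A549 (adjusted p = 1.88e-05 by limma), and HLA-C had 14.00 ± 0.11 and 11.91 ± 0.41 in these lines. These chains are close in sequence and their probe sets, mostly _x_at, can share transcripts. Of 8 peptide loading genes 7 differed between lines. ERAP2, an aminopeptidase that trims peptides in the endoplasmic reticulum, had the widest span of them, 5.06, with 12.11 ± 0.18 in H1975, 10.76 ± 0.12 in H1650, 7.18 ± 0.14 in A549 and 7.05 ± 0.12 in H460 (limma F test, adjusted p = 1.84e-06). CANX (calnexin), a chaperone of new heavy chains, was highest in H460 and lowest in H1650 (span 1.01, adjusted p = 0.000219 by limma). All 4 measured immunoproteasome genes of 5 listed differed between lines, but not in one order. PSMB8 had 11.58 ± 0.15 in H1975 and 9.90 ± 0.08 in A549, PSMB10 was highest in H1650 (11.40 ± 0.07) and lowest in H1975 (9.68 ± 0.33), and PSME1, a subunit of the proteasome activator, was lowest in H1650 (10.89 ± 0.01). NLRC5, the activator of class I genes, spanned 3.32 and was also highest in H1975 (10.48 ± 0.26) and lowest in A549 (7.16 ± 0.20; limma F test, adjusted p = 4.39e-05). Of the other 8 measured regulators, NFYC, a subunit of NF-Y, was highest in H1650 and lowest in H1975 (span 1.52, adjusted p = 0.000512 by limma).

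Class II expression set H1650 apart. CD74 (chromosome 5, 150401639 to 150412910), the invariant chain, had SP and MP signals of 9.29 and 9.40 in H1650, 6.44 and 7.56 in H1975, 4.55 and 4.91 in A549, and 3.0005 and 4.20 in H460 with probe set 209619_at. The line means ran from 9.35 ± 0.08 in H1650 down to 3.60 ± 0.85 in H460 (SD, n = 2), no neighbours in that order overlapped, and the span was 5.75 or 53.7-fold. When linear signals under 32 were set to 32, which took in the A549 and H460 arrays, the span was 4.35. The other CD74 probe sets, 1567628_at and 1567627_at, were dim on all arrays, between 4.50 and 6.02 and between 1.55 and 4.75, and did not show this order. SP was below MP in each line with 209619_at, with log2 ratios of -0.11 in H1650, -1.12 in H1975, -0.36 in A549 and -1.20 in H460. The mean ratio was -0.70 ± 0.54 (SD, n = 4) and -0.89 ± 0.46 without H1650, and the ratios of A549 and H460 lie between linear signals under 32.

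HLA-DRA, the alpha chain of HLA-DR, was seen above the filter in H1650 only, with both of its probe sets. Probe set 208894_at (chromosome 6, 32439887 to 32445046) had SP and MP signals of 8.37 and 8.16 in H1650, 4.53 and 5.37 in H1975, 5.91 and 2.41 in A549, and 3.36 and 5.16 in H460. Probe set 210982_s_at had 7.69 and 7.76 in H1650, 1.75 and 3.08 in H1975, 2.30 and 1.34 in A549, and 2.02 and 2.43 in H460. H1650 thus stood 3.31 above the next line with the first probe set and 5.31 with the second. Outside H1650 the ratios of SP over MP ran from -1.79 to 3.50 with the first probe set and from -1.33 to 0.96 with the second, on signals below the filter, while in H1650 they were 0.21 and -0.07.

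HLA-DRB1, HLA-DPA1 and HLA-DQB1 were also highest in H1650, and HLA-DMA and HLA-DOA were highest in H1975. Of 11 listed chains 10 were measured and 6 were well measured. These 6 differed between lines by the limma F test, where 76.2% of all well measured genes did. HLA-DPA1 passed the filter only through H1650, and the list was written with earlier results of these data known. HLA-DRB1, a beta chain that pairs with HLA-DRA, had 10.11 ± 0.02 in H1650 and between 6.12 ± 0.60 and 7.35 ± 0.28 in the other lines (adjusted p = 4.32e-05 by limma). HLA-DPA1 had SP and MP signals of 9.65 and 9.49 in H1650 and lay between 2.94 and 7.69 on the other arrays, and HLA-DQB1 had 8.78 and 8.92 in H1650 and lay between 5.71 and 7.13 on the others. HLA-DMB, a chain of the peptide editor HLA-DM, was highest in A549, with 11.11 ± 0.11, against 7.49 ± 0.11 in H1650 (limma F test, adjusted p = 6.26e-06). CIITA, the master regulator of class II, did not pass this test with its brightest probe set (span 1.05, adjusted p = 0.151 by limma), which had its lowest mean in H1650, with 5.34 in SP and 5.78 in MP. Its next probe set, dim on all arrays, had its highest mean in H1650, with 4.57 in SP and 4.73 in MP, against 1.87 in SP and 5.41 in MP of H1975, so the CIITA probe sets gave no common order. The summed linear signal of the 7 measured leukocyte markers was 259 in SP and 366 in MP of H1650 and between 360 and 862 on the other arrays. All of these markers but CD14 were below the filter, and the part of such cells in the class II signal was not tested. Of the proteases that supply class II peptides, all 5 measured of 6 listed differed between lines, beside the 76.2% of all. CTSL and CTSD, lysosomal proteases, spanned 1.85 and 2.32 (limma F test, adjusted p = 2.4e-05 and 8.23e-05). CTSS, which cuts the invariant chain, had 4.41 in SP and 8.68 in MP of H1975 and its highest signals in A549, 10.48 in SP and 11.18 in MP.

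**Figure D3:**
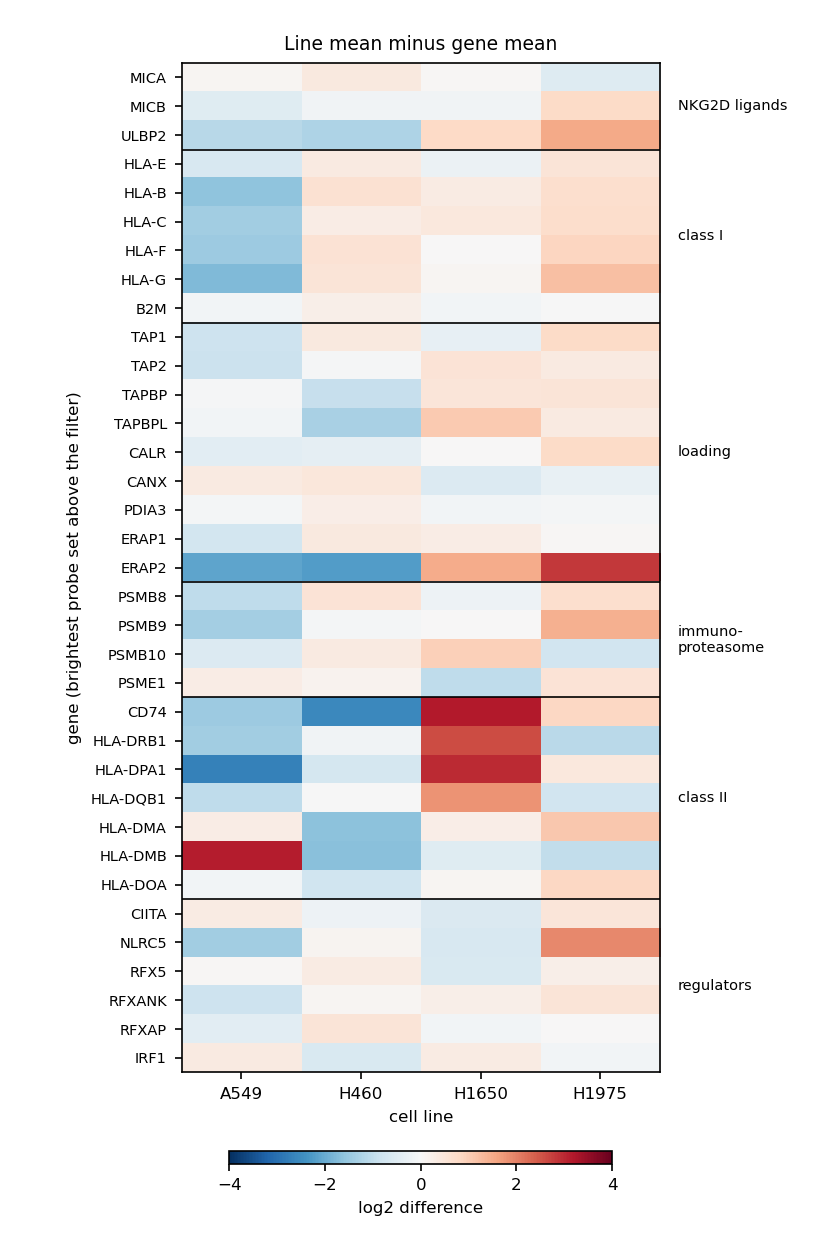
Line mean minus the mean over the 4 lines (colour, log2 difference, red higher and blue lower) for the well measured members and list genes, 1 row per gene by its brightest probe set and 1 column per cell line. Class I chains and PSMB9 are lowest in A549, ERAP2 and ULBP2 are higher in the EGFR mutant lines, and CD74, HLA-DRB1, HLA-DPA1 and HLA-DQB1 are highest in H1650.

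The limma F test between lines is no test of members chosen with their levels by line in view. As a description, 7 of the 11 well measured member probe sets were past its threshold, where 69.5% of all 27280 were, and MICB, HLA-E 200904_at and both bright B2M probe sets were not. All arrays of the EGFR mutant lines lay on one side of all arrays of the K-Ras mutant lines for 3 of the 11, where this held for 24.0% of all. These were both ULBP2 probe sets and CD74, which reached the filter only through the EGFR mutant lines and so had to differ. The mean difference, EGFR mutant minus K-Ras mutant, was 2.32 and 1.61 for ULBP2 and 4.01 for CD74.

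In the comparison of SP with MP over the 4 lines, limma called 0 of 27280 probe sets higher and 0 lower (0% each) at an adjusted p under 0.05, members included, and 930 had an unadjusted p under 0.05. Without H1650 it called 64 higher in SP (0.235%) and 27 lower (0.0990%), with 0 members among them. With the H1650 labels exchanged it called 306 higher (1.12%) and 106 lower (0.389%), and of the members only HLA-E 200904_at was among the lower. The exchange reverses the line that ran against the others in these data, and the members were chosen with their ratios known. Calls under it are thus descriptions. With the labels as given, HLA-E 200904_at had an adjusted p of 0.944 by limma, and of 0.0832 without H1650. No gene of the lists passed this test in either direction, with or without H1650. SP was lower in each of the 4 lines for 3 of the 11 well measured member probe sets, TAP1, ULBP2 221291_at and CD74 209619_at, and for 5.82% of all. It was higher in each line for 0 of the 11 and for 4.55% of all. The CD74 ratios of A549 and H460 lie between linear signals under 32, so their direction is uncertain. With a floor of 32 the mean ratio of CD74 was -0.31 in place of -0.70.

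Within the lines, which give 1 array per population and so no test, 4 values of the well measured members reached 2-fold, and all 4 were lower in SP. These were ULBP2 221291_at in A549, where 1.75% of all were at least 2-fold lower in SP, CD74 in H460 (1.80%), MICB in H1650 (2.10%) and CD74 in H1975 (3.59%). No well measured member was 2-fold higher in SP, where the share of all probe sets was 3.32% (A549), 2.49% (H460), 1.73% (H1650) and 1.95% (H1975). With 16 added to the linear signal only MICB remained past 2-fold, and the values of ULBP2 in A549 and CD74 in H1975 were both -0.99. CD74 in H460 was below the filter in SP and in MP. Its value there was -0.52 with 16 added and 0 with a floor of 32, so its direction is uncertain.

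**Figure D4:**
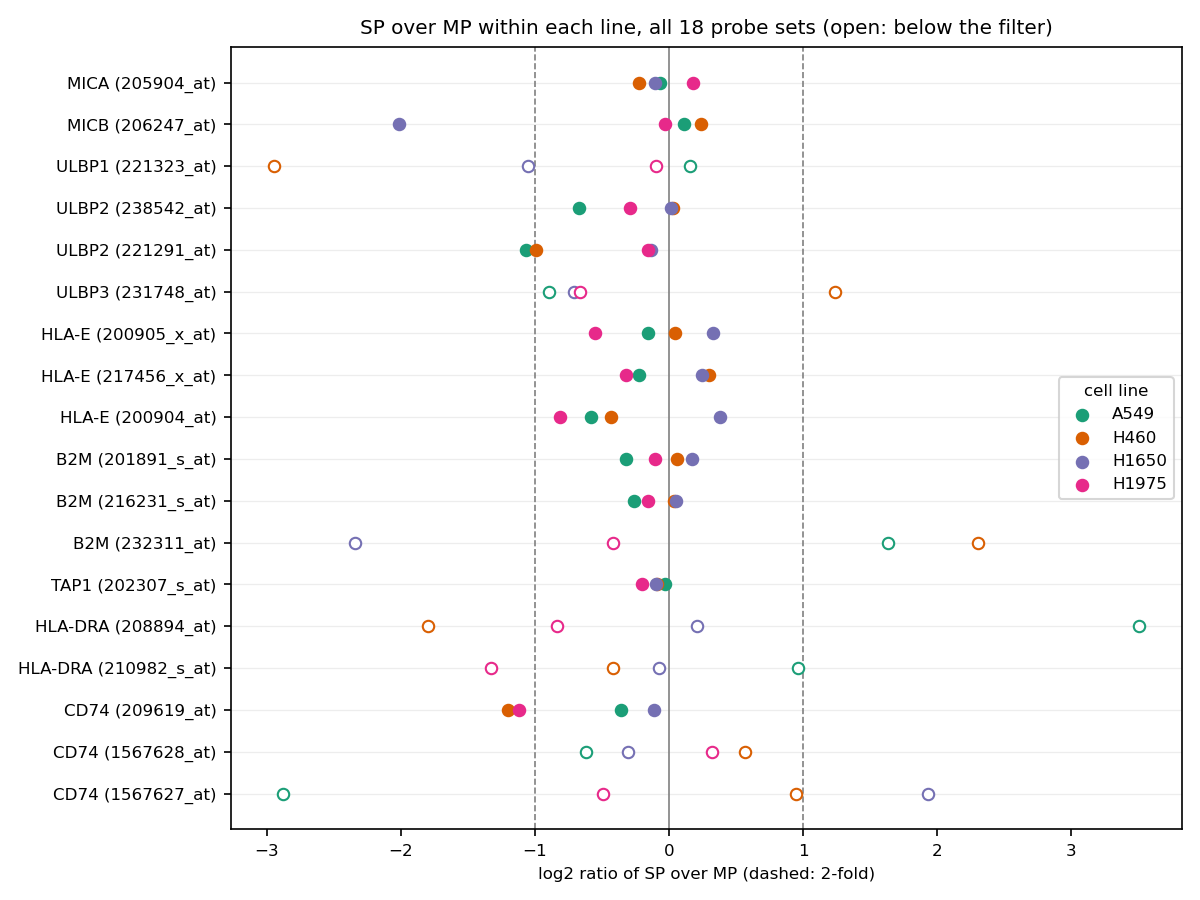
Log2 ratio of SP over MP (x axis) of each of the 18 probe sets (y axis) in each cell line (colour), with open points for probe sets below the filter and dashed lines at 2-fold. Filled points past a dashed line are MICB in H1650, ULBP2 221291_at in A549 and CD74 209619_at in H460 and H1975, and the open points spread from below -2.9 to 3.5.

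Small differences between populations ran the same way through the class I route, and through some other lists, in some lines. Over the 16 measured genes of the heavy chain, peptide loading and immunoproteasome lists, SP was lower for 16 in A549, for 15 in H1975, for 12 in H460 and for 3 in H1650. Among all 12300 well measured genes the share lower in SP was 49.4% in A549, 54.7% in H1975, 55.0% in H460 and 51.2% in H1650. Of the 5 measured class II peptide supply genes, SP was lower for 5, 4, 2 and 1 in the same order of lines. Of the 5 shedding genes it was lower for 4, 4, 3 and 2, and of the 9 measured regulators for 5 in each line. These counts were made on the signals as deposited only. Under quantile normalization, the probe sets at least 2-fold higher and lower in SP of A549 were 732 and 670, in place of 907 and 477. In H1975 they were 704 and 749, in place of 533 and 978, and in H460 and H1650 they changed less. How the counts of the 16 genes move with normalization was not tested. Heavy chain probe sets can share transcripts and so are not separate readings. The median log2 ratios of the 16 were -0.22, -0.28, -0.10 and 0.09 in that order of lines, each well below 2-fold, against medians over all genes between -0.04 and 0.00. Over the 4 lines the mean ratio was below 0 for all 4 heavy chains, all 8 peptide loading genes and all 4 immunoproteasome genes, with medians of -0.17, -0.11 and -0.17, against -0.02 over all genes. The genes with the smallest p of these lists were HLA-F, with ratios of -0.10, -0.50, -0.11 and -0.22 in the same order (limma, adjusted p = 0.944), and PSMB9 (limma, adjusted p = 0.944). TAPBP (tapasin), which holds class I to the transporter, had -0.37, -0.58, -0.12 and 0.14. Outside the class I route, the mean ratios of the genes with the smallest p were 0.30 ± 0.22 for NFYA, -0.13 ± 0.05 for RFX5, -0.40 ± 0.34 for HLA-DRB1, -1.41 ± 1.95 for CTSS and -0.19 ± 0.15 for ADAM10 (SD, n = 4 lines), each with an adjusted p of 0.944 by limma. The other CTSS probe sets had mean ratios of -0.37 ± 0.94 and -0.59 ± 1.00. Genes read on the same arrays are not independent, and H1650, where ABCG2 went against the labels, ran against the other lines.

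By pattern over the 8 arrays, the gene most like ULBP2 was DDX60, an antiviral helicase gene, with a Pearson r of 0.993, followed by ERAP2 with 0.992 and ZNF667 with 0.989. APOL6 (r = 0.994), SRR and ATG9B (both 0.992) were most like CD74, and ASCC1 (0.995), SRA1 and F12 (both 0.992) most like MICA. TAP1 was most like B3GALNT2 (0.994), TRIP6 and HMG20B (both 0.988). For HLA-E, B2M and HLA-DRA the highest r values were 0.972 with TSPYL4, 0.972 with NRSN2-AS1 and 0.964 with CC2D1B, and for MICB it was 0.932 with LINC01231. The dim ULBP1 and ULBP3 were most like OR1J2 (0.973) and EIF1B (0.946). These are the highest of many values over 8 arrays that come in pairs from 4 lines, and they describe likeness only.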

How the data were processed

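Expression of SP and MP cells of A549, H460, H1650 and H1975 was measured on 8 Affymetrix arrays. The values deposited by the authors are MAS5 signals on the log2 scale, made with GCOS 1.4 and MAS5 as named in the submitters' notes. The methods name Expression Console, log2 transformation and mean centring, although the deposited values are not centred by gene. The trimmed mean of the linear signal was 499.9 on each array, so levels are relative to the array. The number of arrays limits the precision. MAS5 sets no floor, and dim probe sets have wide log2 ratios.

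Gene symbols came from the platform annotation, and the 10 member genes were matched to RefSeq by gene identifier. The members and gene lists were chosen with earlier results of these data known. The named genes were every member, the 2 genes with the smallest p of each list in each comparison over all lines, any list gene at least 2-fold changed one way in 3 lines, ABCG2 and TOP2A, and the 3 genes most like each member. Other list genes in the text were chosen after their values were seen.

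The 27280 probe sets other than the 62 controls with a mean log2 signal of at least 6.01, the median over all, entered limma 3.58.1 in R 4.3.3 (lmFit, eBayes with trend), with population and cell line as terms. Calls were made at a Benjamini-Hochberg adjusted p under 0.05. Levels between lines were tested by the moderated F, which is given for the members only as a count beside the share of all probe sets, because they were chosen on these data. The cell line pairs the arrays: after the mean of each population was taken off, the arrays of a line correlated with r between 0.838 and 0.918 over probe sets. The fit was also run on simulated arrays with the same SP change in every line. These do not cover a line that runs against the others, as H1650 did. Alternatives were a floor of 32, a pseudocount of 16, quantile normalization, no filter, 1 probe set a gene, no trend, no block, each line left out and the H1650 labels exchanged.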

Additional observations from a re-analysis of the deposited data

Results flagged for a closer look

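In 54 checks of groups of 4 values, 1 value stood far from the other 3 in 3 cases. Chance gives about 1 in 20 for values not chosen beforehand, and 3 of 54 is near that rate. Checks of a probe set share arrays, and the members were chosen with such values known, so these cases are descriptions. The SP over MP log2 ratio of MICB was -2.01 in H1650, against -0.03 to 0.24 in the other lines. ULBP3 had 1.24 in H460, against -0.90 to -0.66, on signals below the filter. HLA-DRA probe set 210982_s_at had a log2 SP signal of 7.69 in H1650, against 1.75 to 2.30 in the other lines.

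The ratio of SP over MP had one sign in both EGFR mutant lines and the other in both K-Ras mutant lines for 2 probe sets. For MICB the mean ratio of the EGFR mutant lines minus that of the K-Ras mutant lines was -1.19, and most of it comes from the ratio of H1650. The limma interaction of MICB had an adjusted p of 0.982, and that test called 0 of 27280 probe sets, with 1233 at an unadjusted p under 0.05. For the dim B2M probe set 232311_at the difference was -3.35, which was not tested because the probe set was below the filter.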

How the results depend on the processing

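The count of probe sets called between SP and MP was 0 as reported and 0 under the floor, the pseudocount, quantile normalization, no filter, 1 probe set a gene, no trend and no replicate block, with 18 to 2136 at an unadjusted p under 0.05. Leaving out each line gave 0 to 91, where 91 is the count without H1650, and exchanging the H1650 labels gave 412. Without the replicate block 19368 probe sets differed between lines, against 18957 with it, and no call of a member between populations changed. With 1 probe set a gene 9380 of 12300 differed between lines, and leaving out each line gave 14867 to 17487. The 4 member values past 2-fold within a line became 1 with the pseudocount and 15 with no filter, which adds the 7 dim probe sets. All 75 alternatives of the members' mean ratios differed from the reported mean by less than the SD between lines. Leaving out 1 of 4 lines cannot move a mean by that much, so those alternatives could not fail this check. The mean of MICB went from -0.42 to 0.11 without H1650. Of 35 alternatives of the members' spans between lines, 8 moved by more than the spread between the arrays of a line. All 8 were in ULBP1, ULBP3, B2M and CD74. The mean over all probe sets of the gene, dim ones included, gave a span of 1.92 for CD74 and 0.71 for B2M. With a single array per population and line, dim signal limits the ratios of ULBP1, ULBP3, HLA-DRA and, in the K-Ras mutant lines, CD74.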
